A study of Mus musculus with 36 samples.

Results

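The integrated stress response was followed through 7 genes (Atf4, Ddit3, Chac1, Trib3, Asns, Sesn2 and Ddit4), and serine synthesis and use through 3 genes (Psat1, Phgdh and Shmt2). These members were chosen by pathway, as a named list, with earlier results of these data known, as were the further lists below. Counts of them set beside all genes are therefore a description. The members make up 10 of the 19426 genes listed in the RNA-seq tables of mouse neural stem cells (NSCs) and embryonic stem cells (ESCs). The 4 groups of RNA-seq libraries were TKO NSCs (n = 2), WT NSCs (n = 3), TKO ESCs (n = 2) and WT ESCs (n = 3), where TKO is a Tet triple knockout (Tet1, Tet2 and Tet3, the dioxygenases that oxidise 5-methylcytosine in DNA) and WT is Tet wildtype. All lines were male V6.5 ESCs of mixed 129 and C57BL/6 background, or NSCs made from them. ESCs were taken off their feeder cells by preplating and then held for 24 hours on gelatin in medium with serum and LIF, and NSCs were collected on day 6 of their culture at passage 1. The codes of the samples give 2 TKO clones that occur in both cell types, called TKO line 1 and TKO line 2 below, and 3 WT codes. The labels speak of independent lines, and p-values below measure the spread among these lines, which for WT may be that of cultures. Promoter capture Hi-C (pcHiC, a map of contacts made by captured promoters) of 1 TKO and 1 WT NSC library was read at the same genes. The bisulfite (4) and CUT&Tag (20) samples of the study are not used here.

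The integrated stress response begins when 1 of several kinases senses amino acid shortage, misfolded protein, heme shortage or double-stranded RNA and phosphorylates the translation factor eIF2. Most translation then slows, while the mRNA of the transcription factor ATF4 is translated more, and ATF4 raises transcription of genes for amino acid synthesis and uptake, tRNA charging and, with its target CHOP, cell death. Much of the control of ATF4 is therefore at translation, and an mRNA level does not give the protein level. Serine synthesis branches from glycolysis through PHGDH, PSAT1 and PSPH, and SHMT2 passes a carbon of serine to folate in mitochondria. Proliferating stem cells use this pathway for nucleotides, glycine and methyl groups, and ATF4 is known to activate several of its genes.

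Of the targeted genes, Tet1 and Tet3 were called lower in TKO in both cell types, with log2 fold changes (TKO over WT) of -0.47 and -0.73 in NSCs and -1.17 and -1.23 in ESCs. Tet2 was called lower in ESCs (-0.56) and had 0.14 in NSCs (limma adjusted p = 0.459). The labels do not name the deleted exons, so whole-gene counts are a weak check of the deletion. Reads recovered from the normalized counts summed to 41.0 to 49.1 M per library over the listed genes, which may exceed the fragments sequenced. Markers were compared between cell types on counts of the 10 libraries scaled together (limma adjusted p under 0.05). Of 8 neural stem cell markers tested, 4 were higher and 3 lower in NSCs than in ESCs in TKO. In WT, 6 were higher and 1 lower. Over all genes, 35.4% were higher and 34.8% lower in TKO, and 37.8% and 37.5% in WT. All 8 ESC markers were lower in NSCs in both genotypes. In NSCs, 7 of 9 neural stem cell markers were lower in TKO than in WT. Their summed normalized count was 41570 to 50892 in TKO and 104407 to 118042 in WT. Of 8 fibroblast and feeder markers, 7 were higher and 1 lower (123088 to 144236 in TKO, 48224 to 60973 in WT). Mesoderm markers summed to 2647 to 3356 in TKO NSCs and 689 to 778 in WT NSCs, and to 249 to 723 in TKO ESCs and 874 to 1208 in WT ESCs. Trophoblast markers summed to 2228 to 3392 in TKO NSCs and 1419 to 1866 in WT NSCs, where 2 were called higher and 1 lower. In ESCs they summed to 7098 to 7910 in TKO and 8438 to 9484 in WT. Endoderm markers summed to 1390 to 2130 in TKO NSCs and 993 to 1314 in WT NSCs. In ESCs they summed to 206 to 283 in TKO and 461 to 479 in WT. Endothelium and blood markers summed to 377 to 544 in TKO NSCs and 1875 to 2288 in WT NSCs (1 called higher, 1 lower). In ESCs they summed to 2980 to 3948 in TKO and 2031 to 2231 in WT. In ESCs the fibroblast and feeder markers summed to 5570 to 9063 in TKO and 6288 to 7341 in WT, and the ESC markers to 193743 to 222029 in TKO and 159697 to 179968 in WT. In bulk RNA, fewer cells of a type and less RNA per cell cannot be told apart, so the values below are those of the whole culture.

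In TKO NSCs, the ATF4 targets Trib3, Chac1 and Asns were 4.23-fold, 3.20-fold and 1.87-fold higher than in WT NSCs, and in TKO ESCs the same 3 genes were 1.53-fold, 1.87-fold and 1.34-fold lower than in WT ESCs. Psat1 was lower in TKO in both cell types, by 1.73-fold in NSCs and 1.33-fold in ESCs. Shmt2 and Ddit4 rose and Phgdh fell in TKO NSCs, and Atf4 itself fell in TKO ESCs. Counted by the adjusted p of limma (under 0.05 over all genes tested), 5 members rose, 2 fell and 3 did not pass in TKO NSCs, where 37.7% of all 17744 genes were called, 18.2% higher and 19.5% lower. In TKO ESCs, 0 rose, 5 fell and 5 did not pass, where 14.3% of all 17033 genes were called, 7.29% higher and 7.02% lower. Of the members not called higher in ESCs, 1 was higher at an unadjusted p under 0.05, and edgeR and DESeq2 called 0. The median log2 fold change of the members was 0.25 in NSCs and -0.37 in ESCs, beside 0.0059 and 0.0057 for all genes. Both libraries of TKO lay outside the range of WT for 8 members in NSCs (6 above and 2 below, with 59.9% of all genes outside, 30.0% above and 29.9% below) and for 7 members in ESCs (1 above and 6 below, with 43.4% outside, 21.9% above and 21.6% below).

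**Figure D1:**
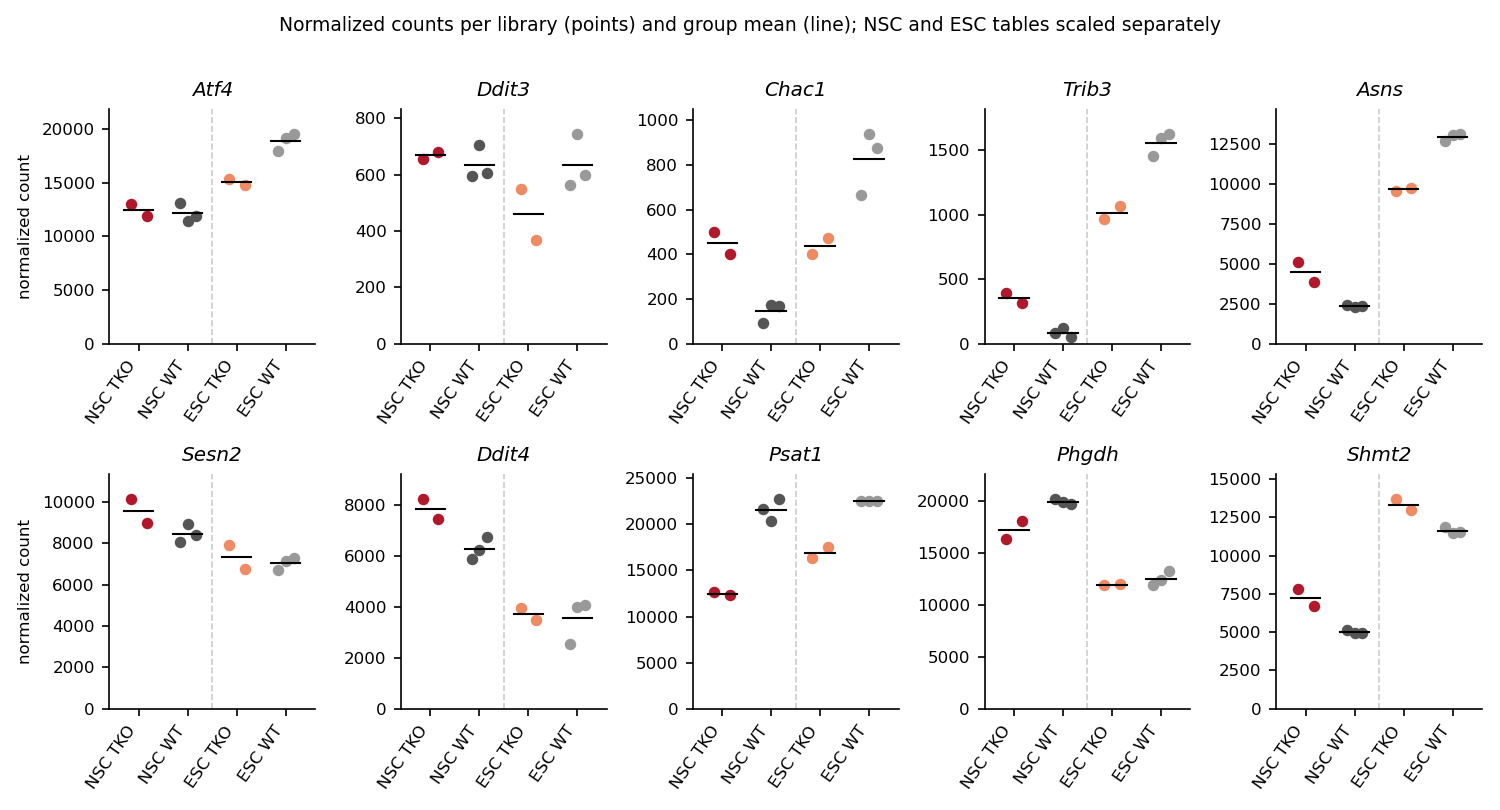
Normalized counts (linear axis from 0) of the 10 genes in each RNA-seq library. Points are libraries, black lines are group means, and the dashed line parts the NSC table from the ESC table, which were scaled separately. Chac1, Trib3 and Asns lie above WT in TKO NSCs and below WT in TKO ESCs, while Psat1 lies below WT in both.

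Trib3, a pseudokinase that binds AKT and feeds back on ATF4, had normalized counts of 390 and 316 in TKO NSCs (lines 1 and 2), against 82.7, 121 and 55.4 in WT NSCs. In TKO ESCs it had 970 and 1065, against 1458, 1596 and 1628 in WT ESCs. The groups did not overlap in either cell type, and TKO was high in NSCs and low in ESCs. The log2 fold change (TKO over WT, on log2 of the normalized count plus 1) was 2.08 in NSCs (standard error, SE, 0.33, adjusted p = 0.000475) and -0.62 in ESCs (SE 0.12, adjusted p = 0.00242), both by limma. In ESCs the call was lost when the 10 libraries shared 1 estimate of the spread (limma, adjusted p = 0.105).

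Chac1, which encodes an enzyme that breaks down glutathione and is a target of ATF4 and CHOP, had normalized counts of 499 and 401 in TKO NSCs, against 93.0, 171 and 169 in WT NSCs. In TKO ESCs the values were 403 and 473, against 666, 939 and 876 in WT ESCs. Again both TKO lines lay above every WT library in NSCs and below every WT library in ESCs. The log2 fold change was 1.68 in NSCs (SE 0.29, limma adjusted p = 0.000746) and -0.90 in ESCs (SE 0.17, limma adjusted p = 0.00203).

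Asns, asparagine synthetase, had normalized counts of 5091 and 3850 in TKO NSCs, against 2417, 2325 and 2360 in WT NSCs. In TKO ESCs it had 9578 and 9757, against 12660, 13085 and 13128 in WT ESCs. The WT libraries of each cell type lay close together, and TKO line 1 exceeded TKO line 2 in NSCs. On the log2 scale the fold change was 0.90 in NSCs (SE 0.11, limma adjusted p = 4.68e-05) and -0.42 in ESCs (SE 0.08, limma adjusted p = 0.00127). Asns lies in the first 10 Mb of chromosome 6, where 14 of 33 other genes were higher and 2 lower in TKO NSCs (median log2 fold change 0.53), while the median over 28 genes there was -0.05 in TKO ESCs. By line, that NSC median was 0.75 in TKO line 1 and 0.51 in TKO line 2, where Asns itself had 1.10 and 0.70. The difference between cell types (NSC minus ESC) had a median of 0.41 over 27 of these genes, of which 6 were called higher. Their part in the Asns result was not tested, and centring whole chromosomes does not take this stretch off. The median over the 50 genes within 10 Mb on either side of Asns was 0.08 in NSCs.

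These 3 genes were called lower in TKO ESCs and higher in TKO NSCs, as were 170 of the 15369 genes tested in both cell types (1.11%). Regions of the genome differed in TKO, and none of the 10 genes lies on chromosome 8, chromosome 11 or distal chromosome 6, where the median of all genes was shifted. That median log2 fold change in ESCs was -0.41 on chromosome 8, 0.39 on chromosome 11 and 0.52 on distal chromosome 6, and in NSCs -0.02, 0.53 and 0.53. With each chromosome centred on its own median, the members kept counts of 5 higher and 2 lower in NSCs and 5 lower in ESCs. The shares of all genes given above are those without centring. In ESCs fewer of all genes were called with it, so these counts lack a share of their own beside them.

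The promoters of these 3 genes were read from RefSeq (build GRCm38.p6, which is mm10) because ATF4 target genes are known for a composite element with the core TGATGNAA, called CARE, bound by ATF4 with C/EBP partners. That core, searched on both strands in the window from 250 bases before to 50 bases after each start site, was found in 3 of the 10 genes (Chac1, Asns and Trib3) and in 3.97% of all 32851 promoter windows of the same length. Before the start site alone it was found in 2 of the 10 genes (Chac1 and Asns) and in 3.45% of all promoters. The 250 bases before the start site are shown 5′ to 3′ on the strand of the gene, with the match in capitals. Chac1 is at chr2:119350992-119351241 (plus strand), Asns at chr6:7693210-7693459 (minus strand) and Trib3 at chr2:152344061-152344310 (minus strand).
Chac1: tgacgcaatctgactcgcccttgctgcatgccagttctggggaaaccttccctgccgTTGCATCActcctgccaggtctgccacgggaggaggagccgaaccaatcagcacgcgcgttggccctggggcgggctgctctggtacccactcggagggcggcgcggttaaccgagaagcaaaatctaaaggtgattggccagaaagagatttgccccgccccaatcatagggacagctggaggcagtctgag
Asns: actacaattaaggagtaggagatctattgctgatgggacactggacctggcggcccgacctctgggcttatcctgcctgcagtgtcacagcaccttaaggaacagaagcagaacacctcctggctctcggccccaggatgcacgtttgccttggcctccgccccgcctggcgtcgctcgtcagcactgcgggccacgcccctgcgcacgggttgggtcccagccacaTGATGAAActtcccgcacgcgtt
Trib3: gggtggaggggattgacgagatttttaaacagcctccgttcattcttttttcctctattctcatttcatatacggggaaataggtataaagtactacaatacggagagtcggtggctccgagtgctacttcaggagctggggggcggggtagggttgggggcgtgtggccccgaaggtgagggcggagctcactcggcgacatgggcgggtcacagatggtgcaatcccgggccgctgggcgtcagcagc
In Chac1 the match begins 193 bases before the start site and reads on the opposite strand, and in Asns it begins 23 bases before it. In Trib3 no match stands in the bases shown, and the letters TTACATCA, a match on the opposite strand, begin 14 bases after the start site. The endoplasmic reticulum stress element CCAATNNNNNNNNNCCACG, searched likewise on both strands, was in 0 of the 10 genes and in 0.119% of all windows. A match is a run of letters and not a measured binding site, and these windows do not cover more distant elements. The windows of the other 7 genes, including the second window listed for Psat1, held no exact match to either element. Sequences that differ from these letters, even by a single base, were not searched.

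Atf4, the transcription factor at the head of this programme, had normalized counts of 13025 and 11856 in TKO NSCs, against 13076, 11437 and 11873 in WT NSCs. In TKO ESCs it had 15341 and 14797, against 17928, 19150 and 19519 in WT ESCs. TKO lay inside the WT range in NSCs and below every WT library in ESCs. By limma, the log2 fold change was 0.04 in NSCs (SE 0.07, limma adjusted p = 0.723) and -0.32 in ESCs (SE 0.08, limma adjusted p = 0.00752). The ESC call did not pass without WT library 2 (limma adjusted p = 0.0632), without WT library 3 (0.0501) or without TKO line 2 (0.0623).

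Ddit3, which encodes CHOP, had normalized counts of 657 and 681 in TKO NSCs, against 594, 705 and 607 in WT NSCs. In TKO ESCs it had 548 and 369, against 562, 744 and 600 in WT ESCs. The groups overlapped in NSCs, and in ESCs both TKO lines were below WT but far from each other. Its log2 fold change was 0.08 in NSCs (SE 0.13, limma adjusted p = 0.688) and -0.49 in ESCs (SE 0.19, limma adjusted p = 0.106), and without TKO line 1 the ESC value was -0.77 (limma adjusted p = 0.0340). The annotated ends of Ddit3 overlap those of Mbd6 by 77 bases and of Mars1 by 71 bases, and neither neighbour was called in NSCs or ESCs. The labels do not say whether reads were counted by strand.

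Sesn2 and Ddit4 encode stress-induced inhibitors of mTORC1, the kinase complex that drives growth. Sesn2, which also senses leucine, had normalized counts of 10129 and 8983 in TKO NSCs, against 8068, 8918 and 8396 in WT NSCs. Its groups did not overlap there, but the log2 fold change of 0.17 (SE 0.07) had a limma adjusted p of 0.0776, which fell to 0.0432 without TKO line 2. In ESCs it had 7910 and 6774 in TKO and 6686, 7143 and 7304 in WT, with overlap and a log2 fold change of 0.06 (SE 0.09, limma adjusted p = 0.743). Ddit4, also called REDD1, had 8226 and 7462 in TKO NSCs, against 5873, 6224 and 6733 in WT NSCs, and both TKO lines were above WT. On the log2 scale the fold change was 0.32 (SE 0.07, limma adjusted p = 0.00566), and the adjusted p was 0.0793 without TKO line 1. In ESCs, Ddit4 had 3964 and 3490 in TKO and 2547, 3995 and 4089 in WT, so that TKO lay within the WT range, with a log2 fold change of 0.10 (SE 0.16, limma adjusted p = 0.728). When the 10 libraries shared 1 estimate of the spread, the NSC value of Ddit4 had a limma adjusted p of 0.136.

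Phgdh encodes the enzyme of the first step of serine synthesis. It had normalized counts of 16336 and 18098 in TKO NSCs, against 20197, 19879 and 19690 in WT NSCs. Both TKO lines were below WT, with a log2 fold change of -0.21 (SE 0.06, limma adjusted p = 0.0160), and without TKO line 1 the value was -0.14 (limma adjusted p = 0.179). In ESCs it had 11878 and 12023 in TKO and 11905, 12423 and 13245 in WT, with overlapping groups and a log2 fold change of -0.07 (SE 0.08, limma adjusted p = 0.640).

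Psat1 encodes the aminotransferase of the second step. It had normalized counts of 12704 and 12289 in TKO NSCs, against 21670, 20411 and 22745 in WT NSCs. In TKO ESCs it had 16301 and 17502, against 22527, 22508 and 22507 in WT ESCs. TKO was low in both cell types without overlap, and the 3 WT ESC libraries were nearly equal. Its log2 fold change was -0.79 in NSCs (SE 0.06, limma adjusted p = 2.49e-06) and -0.41 in ESCs (SE 0.07, limma adjusted p = 0.00106).

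Shmt2 encodes the mitochondrial enzyme that turns serine into glycine and a folate-bound carbon. It had normalized counts of 7844 and 6682 in TKO NSCs, against 5162, 4942 and 4938 in WT NSCs. In TKO ESCs it had 13696 and 12965, against 11892, 11454 and 11532 in WT ESCs. TKO was above WT in both cell types without overlap, but the ESC difference did not pass. The log2 fold change was 0.53 in NSCs (SE 0.08, limma adjusted p = 0.000226) and 0.20 in ESCs (SE 0.08, limma adjusted p = 0.0982). Within this branch, Psat1 and Phgdh were thus low and Shmt2 high in the same TKO NSC libraries. The annotated end of Shmt2 overlaps Ndufa4l2 by 32 bases.

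**Figure D2:**
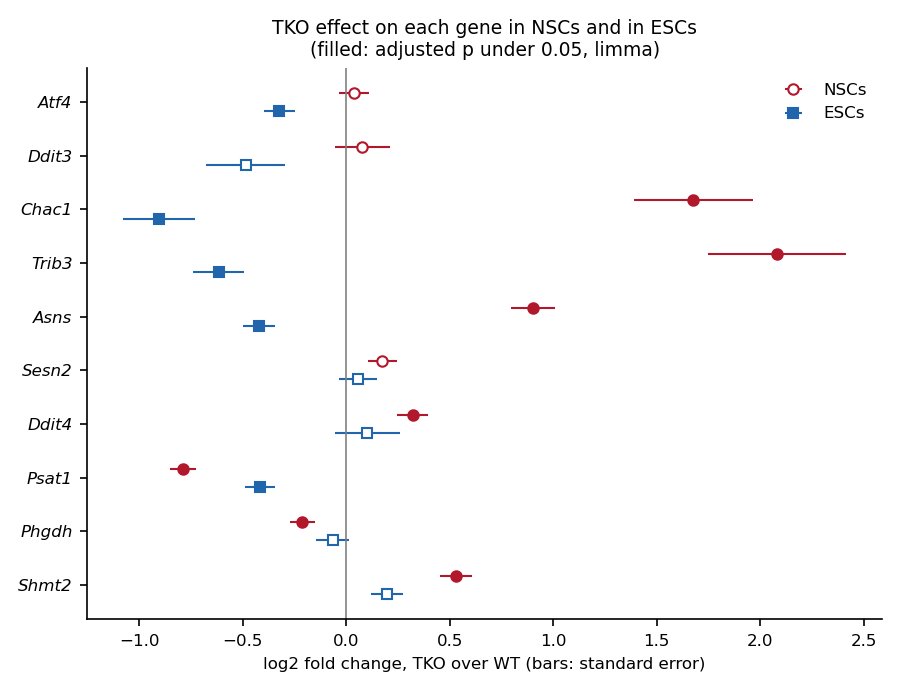
Log2 fold change of TKO over WT for each gene, with NSCs as circles and ESCs as squares. Bars are standard errors and filled symbols have a limma adjusted p under 0.05. Trib3 and Chac1 reach 2.08 and 1.68 in NSCs and lie at -0.62 and -0.90 in ESCs.

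Whether the TKO effect differed between the cell types was tested as the difference of the log2 fold changes (NSC minus ESC) over all 10 libraries. The difference passed for 6 members, 5 of them higher in NSCs and 1 lower, where 20.7% of all 15369 genes were called, 10.9% higher and 9.81% lower. It was 2.70 for Trib3 (SE 0.36, limma adjusted p = 0.000132), 2.58 for Chac1 (SE 0.37, limma adjusted p = 0.000247) and 1.33 for Asns (SE 0.13, limma adjusted p = 1.08e-05). By size, Trib3 and Chac1 ranked 431 and 499 among the genes tested, and Asns ranked 1911. Psat1 had a difference of -0.37 (SE 0.09, limma adjusted p = 0.00827), so that its decrease in TKO was larger in NSCs. Smaller differences were found for Atf4 (0.36, SE 0.10, limma adjusted p = 0.0219) and Shmt2 (0.33, SE 0.10, limma adjusted p = 0.0320). Both of these depended on single libraries. Without TKO NSC line 1, the limma adjusted p was 0.117 for Atf4 and 0.196 for Shmt2, and without TKO ESC line 2 it was 0.0607 for Atf4 and 0.0961 for Shmt2. Without WT ESC library 3 it was 0.0501 for Atf4 and 0.0518 for Shmt2, without WT NSC library 2 it was 0.0525 and 0.0631, and without WT NSC library 3 it was 0.0517 and 0.0687. Shmt2 also missed the threshold without WT ESC library 2 (limma adjusted p = 0.0521). The difference did not pass for Ddit3 (0.56, SE 0.26, limma adjusted p = 0.149), Sesn2 (0.12, SE 0.12, limma adjusted p = 0.532), Ddit4 (0.22, SE 0.22, limma adjusted p = 0.541) or Phgdh (-0.15, SE 0.09, limma adjusted p = 0.301). It passed for Ddit3 without TKO ESC line 1 (0.85, limma adjusted p = 0.0345) and for Ddit4 without WT ESC library 1 (0.44, limma adjusted p = 0.0180).

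The same comparison can be read as the change of level between the cell types within each genotype, on counts of the 10 libraries scaled together. In TKO, 1 member was higher and 5 were lower in NSCs than in ESCs, where 70.2% of all 15381 genes were called, 35.4% higher and 34.8% lower. In WT, 2 members were higher and 8 lower, where 75.3% of all genes were called, 37.8% higher and 37.5% lower. The median log2 fold change (NSC over ESC) of the members was -0.58 in TKO and -0.80 in WT, beside -0.0046 and -0.0017 for all genes. Trib3 was 3.98-fold lower in NSCs than in ESCs in TKO and 25.6-fold lower in WT. Its jointly scaled count averaged 298 ± 45.6 in TKO NSCs and 1183 ± 68.5 in TKO ESCs (SD, n = 2 each), and 73.7 ± 28.2 in WT NSCs and 1819 ± 95.5 in WT ESCs (SD, n = 3 each). Asns was 3.01-fold lower in NSCs in TKO and 7.48-fold lower in WT. Chac1 was 7.98-fold lower in NSCs in WT (log2 -3.00, SE 0.23, limma adjusted p = 1.84e-08), and in TKO its log2 value of -0.43 (SE 0.29) did not pass (limma adjusted p = 0.196). Its jointly scaled count averaged 380 ± 60.0 in TKO NSCs and 509 ± 53.1 in TKO ESCs (SD, n = 2 each), and 123 ± 37.8 in WT NSCs and 963 ± 163 in WT ESCs (SD, n = 3 each).

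The order of the groups differed by gene on that joint scale. Trib3, Asns and Atf4 stood highest in WT ESCs, then in TKO ESCs, and lower in the NSC groups, with TKO NSCs above WT NSCs for Trib3 and Asns and no difference beyond the spread for Atf4. Chac1 stood highest in WT ESCs and lowest in WT NSCs, with TKO NSCs below TKO ESCs without overlap, a difference that did not pass the test. Psat1 stood highest in WT ESCs (26249 ± 156, SD, n = 3) and lowest in TKO NSCs (10548 ± 296, SD, n = 2), with TKO ESCs (19654 ± 830, SD, n = 2) and WT NSCs (18425 ± 998, SD, n = 3) between them. Psat1 was 1.86-fold lower in NSCs in TKO and 1.43-fold lower in WT. Shmt2 was 2.54-fold lower in NSCs in TKO and 3.17-fold lower in WT. Atf4 was 1.67-fold lower in NSCs in TKO and 2.13-fold lower in WT. Ddit4 was higher in NSCs in both genotypes, 1.53-fold in TKO and 1.32-fold in WT, and the WT call was lost without WT ESC library 1 (limma adjusted p = 0.0539) or WT NSC library 3 (0.0598). Phgdh had a log2 value of 0.06 in TKO (SE 0.07, limma adjusted p = 0.447) and was 1.16-fold higher in NSCs in WT. Ddit3 had 0.11 in TKO (SE 0.20, limma adjusted p = 0.649) and -0.44 in WT (SE 0.17, limma adjusted p = 0.0248), and the WT call was lost without WT ESC library 2 (limma adjusted p = 0.115), WT NSC library 1 (0.0786) or WT NSC library 3 (0.0696). Sesn2 had -0.08 in TKO (SE 0.09, limma adjusted p = 0.451) and -0.19 in WT (SE 0.07, limma adjusted p = 0.0344). The WT call of Sesn2 was lost without WT ESC libraries 2 or 3 (limma adjusted p = 0.0866 and 0.104) or WT NSC libraries 1 or 3 (0.122 and 0.0806), with TMM scaling (0.0670) or by edgeR (adjusted p = 0.0769). When every library was set to an equal total, the median of all genes shifted by 0.39 in TKO and 0.33 in WT, and Sesn2 then read 0.32 in TKO and 0.14 in WT. Under that scaling Ddit3 read 0.50 in TKO (limma adjusted p = 0.0358) and -0.12 in WT (0.529), and Phgdh read 0.46 in TKO (4.36e-05).

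**Figure D3:**
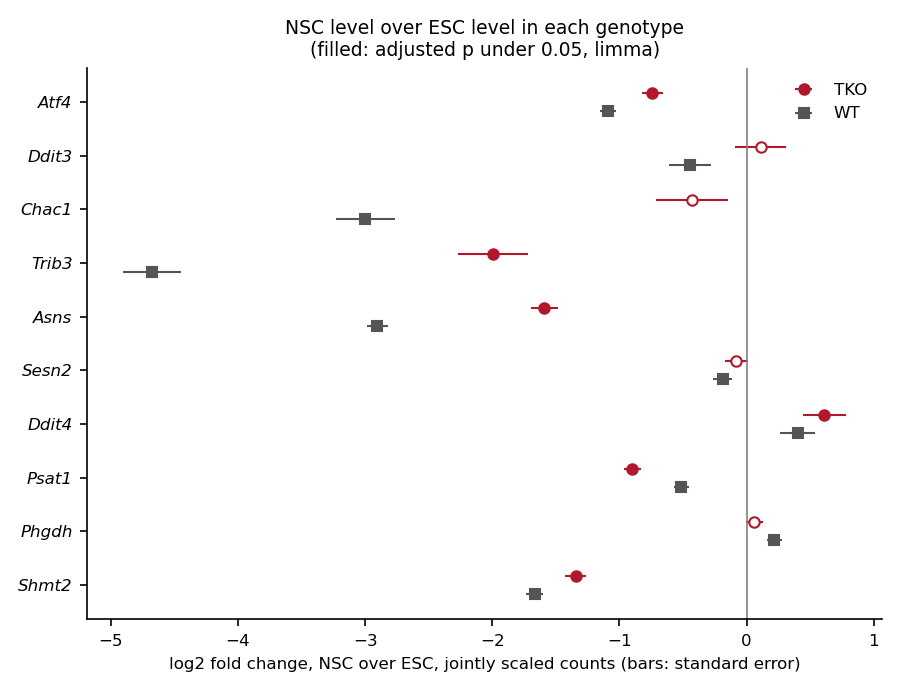
Log2 fold change of NSCs over ESCs on jointly scaled counts, with TKO as circles and WT as squares. Bars are standard errors and filled symbols have a limma adjusted p under 0.05. Trib3 lies at -1.99 in TKO and -4.68 in WT, and Chac1 at -0.43 in TKO and -3.00 in WT.

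Of 8 ESC markers, 3 were called higher and 1 lower in TKO NSCs. All 8 summed to 11013 to 11091 normalized counts in TKO NSCs and 15525 to 17717 in WT NSCs. The 7 ESC markers other than Sox2, which NSCs share, summed to 2536 to 4384 normalized counts in TKO NSCs and 1029 to 1247 in WT NSCs. Pou5f1, a core pluripotency factor, stood in NSCs at 2.83% of its ESC level in TKO and at 0.467% in WT, on the joint scale. Chac1 stood at 74.6% in TKO and 12.8% in WT, Trib3 at 25.2% and 4.05%, and Asns at 33.6% and 13.4%. Nanog stood at 1.16% in TKO and 0.311% in WT, Zfp42 at 0.140% and 0.0273%, Dppa5a at 0.212% and 0.0725%, Esrrb at 0.269% and 0.235%, Tfcp2l1 at 0.601% and 0.664%, and Klf4 at 2.53% and 4.01%. Sox2 stood at 25.2% in TKO and 63.0% in WT. The part of the ESC, fibroblast, feeder, mesoderm, endoderm, trophoblast, endothelium and blood markers in the results for Chac1, Trib3 and Asns was not tested.

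The genes whose standardized profile over the 10 libraries lay closest to that of Chac1 were Egr2 (root mean square distance 0.184 SD units), Krt8 (0.191), 2310057M21Rik (0.192), Tyk2 (0.200) and Mef2b (0.201). Among the members, Trib3 was nearest to Chac1 (0.320, rank 44) and Asns next (0.373, rank 114). Egr2, an immediate early gene, had log2 fold changes of 1.56 in TKO NSCs and -0.63 in TKO ESCs. Closest to Psat1 were Gm4969 (0.139), Clcn3 (0.176), Eif4g2 (0.182), Rnf168 (0.187) and Anp32e (0.195). The nearest member to Psat1 was Atf4 (0.686, rank 1559). These distances describe 10 libraries in 4 groups and carry no test.

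Upstream of ATF4, the transcripts of eIF2 kinases, eIF2, eIF2B and the eIF2 phosphatase were counted in the same way, and changes of these and the following genes are log2 fold changes of TKO over WT. Of 15 such genes, 5 rose and 1 fell in TKO NSCs, and 1 rose and 1 fell in TKO ESCs. The difference between cell types passed for 0 by limma (5 at an unadjusted p under 0.05, 1 by edgeR and 2 by DESeq2). Beside this and the lists below stand the shares of all genes called, 18.2% higher and 19.5% lower in NSCs. These shares were 7.29% and 7.02% in ESCs, and 10.9% and 9.81% for the difference. In TKO NSCs, Eif2ak1, the heme-sensing kinase, rose by 0.27 on the log2 scale (SE 0.08, limma adjusted p = 0.0230) and Eif2ak2, the kinase of double-stranded RNA, by 0.38 (SE 0.11, limma adjusted p = 0.0191). Ppp1r15a, the stress-induced phosphatase subunit known as GADD34 and itself an ATF4 target, fell by 0.45 (SE 0.09, limma adjusted p = 0.00266). Its normalized count averaged 1195 ± 14.3 in TKO NSCs and 1633 ± 81.8 in WT NSCs (SD, n = 2 and 3), so it was low where Chac1 and Trib3 were high. In TKO ESCs, Eif2ak3, the kinase PERK of the endoplasmic reticulum, fell by 0.42 (SE 0.13, limma adjusted p = 0.0468). Eif2ak4, the amino acid sensor GCN2, had log2 values of -0.06 in NSCs and 0.00 in ESCs (limma adjusted p = 0.738 and 0.995).

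Among 8 other transcription factors of the response, 3 rose and 1 fell in TKO NSCs and 1 rose and 3 fell in TKO ESCs. Atf3, a stress-induced partner in the ATF and CREB family, rose in TKO NSCs (245 ± 40.3 normalized counts in TKO and 144 ± 4.39 in WT, log2 0.76, SE 0.23, limma adjusted p = 0.0254) and fell in TKO ESCs (303 ± 83.7 in TKO and 629 ± 84.6 in WT, log2 -1.07, SE 0.20, limma adjusted p = 0.00161). The difference of 1.82 for Atf3 passed (limma adjusted p = 0.00114) and was the 1 of 8 that did. Atf5, a factor controlled at translation like Atf4, fell in both, by 0.69 in NSCs and 0.96 in ESCs. Nfe2l1 on chromosome 11 rose by 0.44 in TKO NSCs and by 0.66 in TKO ESCs. With chromosomes centred it read -0.10 in NSCs (limma adjusted p = 0.277) and 0.26 in ESCs (0.0487).

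Of 20 other ATF4 targets, 7 rose and 2 fell in TKO NSCs, 0 rose and 4 fell in TKO ESCs, and the difference was higher in NSCs for 8 and lower for 0. Pck2, the mitochondrial enzyme that makes phosphoenolpyruvate, rose in TKO NSCs (4666 ± 87.0 normalized counts in TKO and 2582 ± 105 in WT, log2 0.85, SE 0.07, limma adjusted p = 4.64e-06) and fell in TKO ESCs (1911 ± 167 in TKO and 2975 ± 291 in WT, log2 -0.64, SE 0.11, limma adjusted p = 0.00113). Mthfd2, of the mitochondrial folate cycle, rose by 0.56 in TKO NSCs and fell by 0.45 in TKO ESCs. Slc7a11, the cystine importer, fell by 0.71 in TKO NSCs (SE 0.18, limma adjusted p = 0.0101). With chromosomes centred, Eif4ebp1 on chromosome 8 was higher in TKO ESCs (0.30, limma adjusted p = 0.0341). Slc1a4 on chromosome 11 was then lower by 0.68 in TKO NSCs and 0.76 in TKO ESCs (limma adjusted p = 9.15e-05 and 0.00209). Centring took the differences of Eif4ebp1 and Slc7a5, also on chromosome 8, from 0.40 and 0.42 to 0.02 and 0.04. Those of Stc2, Pycr1 and Gpt2 still passed. Gpt2, an alanine aminotransferase on chromosome 8, fell by 0.77 in TKO ESCs and by 0.37 with chromosomes centred, and Pycr1, a proline synthesis enzyme on chromosome 11, rose by 0.78 in TKO NSCs but read 0.24 with chromosomes centred (limma adjusted p = 0.142). Without genes of chromosomes 8 and 11 and distal 6, a choice made after seeing the data, 4 rose and 2 fell in NSCs, 0 rose and 2 fell in ESCs and 3 had a higher difference, of 13.

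The cytosolic aminoacyl-tRNA synthetases, which charge tRNAs and include many ATF4 targets, were a further list. Of 20, 8 rose and 0 fell in TKO NSCs, 0 rose and 4 fell in TKO ESCs, and the difference was higher for 11 and lower for 0. Iars rose by 0.38 and Cars by 0.29 in TKO NSCs, and Gars fell by 0.30 in TKO ESCs. Rars on chromosome 11 rose by 0.57 in TKO NSCs but read 0.03 with chromosomes centred (limma adjusted p = 0.760). Farsa and Aars on chromosome 8 fell by 0.70 and 0.54 in TKO ESCs, and read -0.29 and -0.14 with chromosomes centred, where Aars no longer passed (limma adjusted p = 0.209). Of the 16 synthetases elsewhere, 6 rose and 0 fell in NSCs, 0 rose and 1 fell in ESCs, and 7 had a higher difference.

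Of 21 other genes of serine, glycine and one-carbon metabolism, 5 rose and 6 fell in TKO NSCs, 2 rose and 6 fell in TKO ESCs, and the difference was higher for 5 and lower for 4. Psph, of the third step of serine synthesis, rose by 0.45 in TKO NSCs (1326 ± 300 normalized counts in TKO and 965 ± 103 in WT, SE 0.15, limma adjusted p = 0.0329), while Psat1 and Phgdh fell there. Of the mitochondrial folate genes, Mthfd2 and Mthfd1l rose in TKO NSCs by 0.56 and 0.57 and fell in TKO ESCs by 0.45 and 0.28. Mthfd2 and Aldh1l2 also stand among the ATF4 targets above, so both lists count them. Others in the list did not pass in TKO NSCs, with Mthfd2l at -0.03, Aldh1l2 at 0.06 and Slc25a32 at 0.37 (limma adjusted p = 0.866, 0.917 and 0.0945), and Slc25a32 had 0.31 in TKO ESCs (0.148). Of the 4 glycine cleavage genes in the list, Gldc, Amt and Gcsh fell in TKO NSCs by 0.67, 0.84 and 0.31, and Dld had 0.17 (limma adjusted p = 0.0680). Mthfd2l, a paralogue of Mthfd2, fell by 2.31 in TKO ESCs (31.3 ± 6.16 normalized counts in TKO and 160 ± 32.7 in WT). Shmt1, the cytosolic counterpart of Shmt2 on chromosome 11, rose by 0.71 in TKO NSCs and 0.34 in TKO ESCs. With chromosomes centred it read 0.17 and -0.06 and passed in neither (limma adjusted p = 0.228 and 0.691). Srr, also on chromosome 11, rose by 0.55 in TKO NSCs but then read 0.01 (limma adjusted p = 0.946). Gcsh, on chromosome 8, fell by 0.39 in TKO ESCs but then read 0.01 (0.962), while in TKO NSCs it read -0.28 (0.0152).

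**Figure D4:**
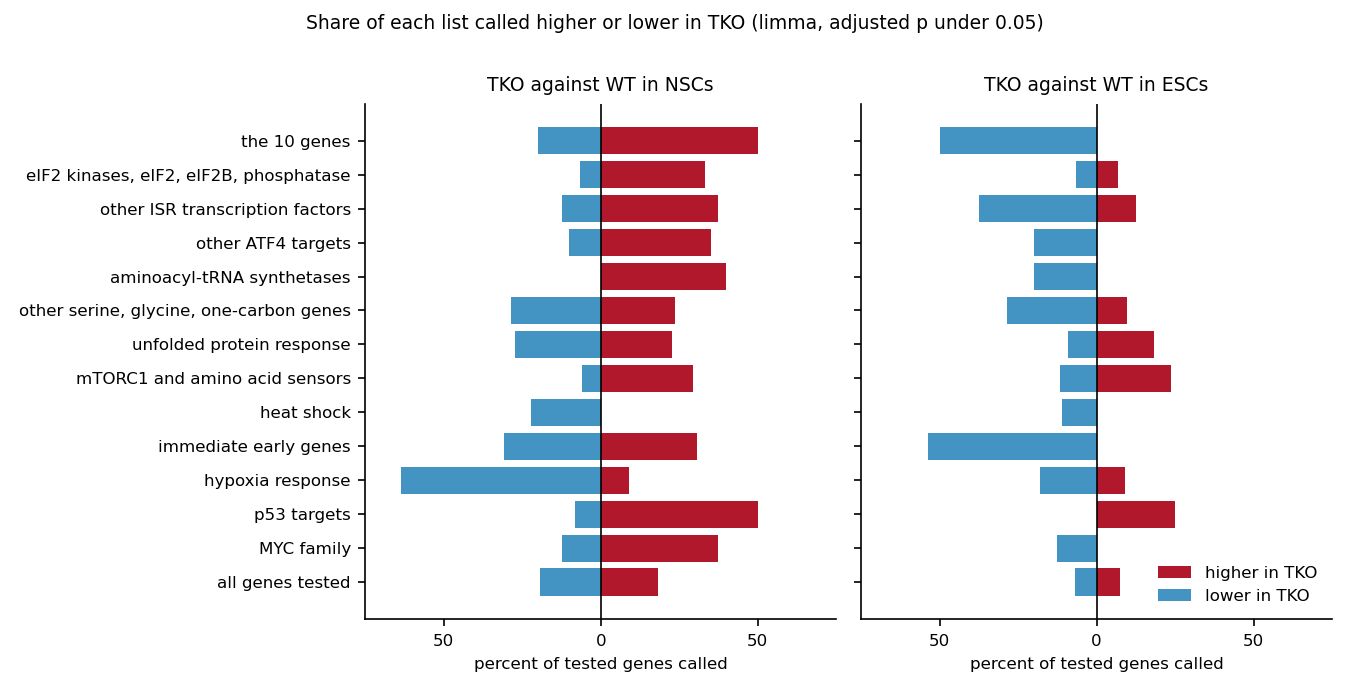
Percent of the genes of each list called higher (red, right of 0) or lower (blue, left of 0) in TKO, in NSCs on the left and ESCs on the right, by limma adjusted p under 0.05. The lowest bar gives all genes tested, 18.2% higher and 19.5% lower in NSCs and 7.29% and 7.02% in ESCs.

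Other stress programmes were counted likewise. Of 22 genes of the unfolded protein response, 5 rose and 6 fell in TKO NSCs, 4 rose and 2 fell in TKO ESCs, and the difference was higher for 3 and lower for 7. Without genes of chromosomes 8 and 11 and distal 6, 2 rose and 5 fell in NSCs, 1 was called in ESCs (higher), and the difference was higher for 1 and lower for 7, of 17. Herpud1, on chromosome 8, fell by 1.11 in TKO ESCs and by 0.71 with chromosomes centred, while the folding genes Creld2 and Pdia3 had differences of -0.57 and -0.53. Of 9 heat shock genes, 0 rose and 2 fell in NSCs, 0 rose and 1 fell in ESCs, and the difference passed for 0 by limma. Of 17 genes of mTORC1 and its amino acid sensors, 5 rose and 1 fell in NSCs and 4 rose and 2 fell in ESCs. The difference was higher for 2 and lower for 1. On chromosome 11, Rptor, Castor1 and Nprl3 rose by 0.75, 0.91 and 0.82 in TKO NSCs. With chromosomes centred they read 0.22, 0.37 and 0.28, where Castor1 did not pass (limma adjusted p = 0.110). In TKO ESCs, Rptor then read 0.07 (limma adjusted p = 0.690) and Castor1 0.39 (0.0166). Of 11 hypoxia genes, 1 rose and 7 fell in NSCs, 1 rose and 2 fell in ESCs, and the difference was higher for 0 and lower for 4. Of 12 p53 targets, 6 rose and 1 fell in NSCs, 3 rose and 0 fell in ESCs, and the difference was higher for 0 and lower for 1. Of 8 genes of the MYC family, 3 rose and 1 fell in NSCs and 0 rose and 1 fell in ESCs. The difference was higher for 3 and lower for 0. Mnt and Mlx on chromosome 11 rose by 0.29 and 0.81 in TKO NSCs. With chromosomes centred they read -0.24 (limma adjusted p = 0.0719) and 0.27 (0.0476). Myc, known to raise amino acid and nucleotide synthesis, rose by 1.31 in TKO NSCs (3267 ± 318 normalized counts in TKO and 1313 ± 67.1 in WT, SE 0.09, limma adjusted p = 1.36e-06).

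Of 13 immediate early genes, which respond quickly to stimulation of cells, 4 rose and 4 fell in TKO NSCs, 0 rose and 7 fell in TKO ESCs, and the difference was higher for 4 and lower for 2. Ier2 on chromosome 8 had a log2 fold change of 1.15 in NSCs and -0.55 in ESCs, where it read -0.15 with chromosomes centred (limma adjusted p = 0.270), and Ier3 fell by 1.78 in NSCs. Their part in the results for Chac1, Trib3 and Asns was not tested. Where a list count above is 0, the same count at an unadjusted p under 0.05, by edgeR and by DESeq2 was also 0, with these exceptions beside the eIF2 genes already given. At an unadjusted p under 0.05, 1 ATF4 target had a lower difference. Heat shock genes gave 1 higher in ESCs, and for the difference 1 higher and 2 lower, of which edgeR and DESeq2 each called 1 lower. For p53 targets the difference was higher for 3 at an unadjusted p under 0.05 and for 1 by DESeq2, and in ESCs 2 MYC family genes were higher at an unadjusted p under 0.05 and by DESeq2.

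In the pcHiC lists, with 1 TKO and 1 WT NSC library and no test, captured fragments were found for 9 of the 10 genes. None was found for Psat1. Captured fragments were taken from the first anchors of the listed loops of either library. A captured promoter without such a loop would therefore be missed. The deposited lists held 58145 loops in TKO and 59754 in WT, with a score of at least 5. The median over the 9834 genes with such a fragment was 3 partners in TKO and 4 in WT. The Chac1 promoter had 2 partners in TKO and 0 in WT, the Trib3 promoter 1 in TKO and 2 in WT with 0 in common, and the Asns promoter 5 in TKO and 3 in WT with 2 in common. The 2 shared partners of Asns, at Col28a1 and Mios, scored 6.02 and 7.51 in TKO and 8.05 and 7.05 in WT. Sesn2 had the most partners of the 10 genes, 12 in TKO and 10 in WT with 5 in common, followed by Shmt2 with 8 in TKO and 9 in WT. Atf4 had 4 partners in TKO and 6 in WT, and its strongest, at Tnrc6b 454 kb away, scored 21.7 in TKO and 12.0 in WT. With a score of at least 10, Atf4 had 3 partners in TKO and 1 in WT, so that the order turned, Sesn2 had 3 in each, Ddit3 had 0 in TKO and 2 in WT, and the other genes had 0 in both. Ddit3 had 3 partners in TKO and 6 in WT, Ddit4 1 and 2, and Phgdh 2 and 1. The score is the authors' own value for a loop, and the 2 lists may differ in depth, so these counts describe the lists.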

How the data were processed

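RNA-seq values are DESeq2-normalized counts (a signal per gene) as the authors deposited them, in 1 table per cell type, each scaled on its own. The build was mm10 and the tools named were STAR 2.7.3a, featureCounts, DESeq2 1.40.2 and Trim Galore 0.6.5, per the submitters' processing notes. Dividing each column by its step gave whole numbers for 100% of values (tolerance 1e-06) and totals of 41.0 to 49.1 M reads. Of values of up to 20 reads, 75.2% to 82.7% were even, so a fragment may have been counted more than once and totals may exceed the fragments sequenced. The unit check did not accept the recovery for 2 WT ESC columns, so edgeR 4.0.16 and DESeq2 1.42.0 on recovered reads served only as alternatives.

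TKO was compared with WT by limma 3.58.1 (R 4.3.3) with a trend, after adding 1 and taking log2, in genes whose mean value reached 10, with Benjamini-Hochberg adjustment over all genes and a threshold of 0.05. The difference of the TKO effect between cell types was fitted on the same deposited values, in genes whose mean reached 10 in both cell types. Levels of NSCs over ESCs within a genotype used recovered reads scaled together by the median of ratios. Positions came from RefSeq (GRCm38.p6) for 91.2% of the 19426 genes. pcHiC loop scores are as deposited by the authors.

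All members were named, with up to 3 genes of each list by size of a passing change and any gene of the serine and eIF2 lists. The 5 genes closest in profile to Chac1 and Psat1 were named too. Further genes of the lists were named where chromosome centring changed their value. Members and lists were chosen with earlier results of these data known. Alternatives covered scaling, filter, pseudocount, spread, chromosome centring, left-out libraries and a replicate block. Between cell types the TKO codes name the same clones (correlation of deviations 0.0416), while WT libraries share only a number (-0.0339, -0.0022 and -0.0027). The test code was tested on simulated data.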

Additional observations from a re-analysis of the deposited data

Results flagged for a closer look

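The TKO effect differed between the cell types by the test of the difference itself (limma adjusted p under 0.05) for the genes given here, each as the log2 fold change in NSCs minus that in ESCs. Among the 10 members these were Trib3 (2.70), Chac1 (2.58), Asns (1.33), Atf4 (0.36), Shmt2 (0.33) and Psat1 (-0.37). Among other factors and targets of the stress response they were Atf3 (1.82), Pck2 (1.49), Mthfd2 (1.01) and Gpt2 (0.92). The synthetases Aars (0.67), Farsa (0.63) and Gars (0.55) belonged here as well, and with chromosomes centred Farsa did not pass (0.24, limma adjusted p = 0.0822), while Aars read 0.29 and Gpt2 0.54. Among serine, glycine and one-carbon genes they were Mthfd2l (2.28), Mthfd1l (0.85), Amt (-0.71), Gldc (-0.73) and Sfxn3 (-0.93). Genes of other lists were Egr2 (2.18), Ier2 (1.70), Herpud1 (1.25), Myc (1.17), Pdia3 (-0.53), Creld2 (-0.57) and Ier3 (-1.73). With chromosomes centred, Ier2 and Herpud1, both on chromosome 8, read 1.32 and 0.87.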

How the results depend on the processing

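The calls of Trib3, Chac1, Asns and Psat1 for the difference between cell types passed under every alternative run. In ESCs 2437 genes were called, against 1595 with chromosomes centred and 1066 to 2275 when 1 library was left out. In NSCs the count of members lower was 1 to 2 with 1 library left out. For the difference, genes called ranged over 2092 to 3308 and members higher over 3 to 6 with 1 library left out, and DESeq2 called 3684 genes. For NSCs over ESCs in WT, members higher ranged over 1 to 2 with 1 library left out, and in TKO they numbered 4 with equal totals. Equal totals turned Sesn2 to 0.32 in TKO and 0.14 in WT. With chromosomes centred, values of called genes turned sign for Ccng1 (-0.017), Dnajb1 (0.031), Gcsh (0.0084), Shmt1 (-0.057), Slc7a5 (0.024) and Kars (0.11) in ESCs and for Ern1 (-0.082), Nfe2l1 (-0.10), Mnt (-0.24) and Ccng1 (-0.13) in NSCs, since the centring takes off the shift of their chromosome. With the replicate block, 1912 genes were called in ESCs, 6275 in NSCs and 2938 for the difference, and 10617 and 11459 for NSCs over ESCs in TKO and WT. The block ended the ESC call of Atf4 (limma adjusted p = 0.0936) and no other call of a member. Between TKO and WT, libraries share only a number (correlations of deviations -0.0378 and -0.0181 in ESCs, -0.0095 and -0.0093 in NSCs). There were 2 TKO lines per cell type, and a p that missed the threshold does not show equal levels.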
